A study of Bos taurus with 8 samples.

Results

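RNA polymerase II (Pol II) is the enzyme that makes messenger RNA, and the genes described here encode the enzyme and the proteins that bring it to promoters and carry it along genes. They were taken from the deposited table by symbol: every symbol that starts with POLR2, GTF2 or SUPT, or with TAF or MED followed by a number, together with TBP, TBPL2, CDK7, CDK9, CCNT1, CCNT2, CCNH and MNAT1. This gave 95 of 16606 genes. Of these, 93 had a mean of at least 1 CPM (reads per 1000000 reads, as scaled in the deposited table) over the 8 libraries and entered the tests. TAF6 and TAF7L did not, and are given by level. The POLR2L and MED8 transcripts were not analysed here.

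At a promoter, TBP and the TAF proteins (together TFIID) recognise the core promoter, TFIIA and TFIIB stabilise them there, TFIIF escorts the polymerase, and TFIIE and TFIIH open the DNA. CDK7, with its cyclin CCNH and the assembly factor MNAT1, is the kinase of TFIIH and phosphorylates the tail of POLR2A, the largest subunit. Mediator relays signals from activators bound at enhancers. DSIF (SUPT4H1 with SUPT5H) holds the polymerase in a paused state until P-TEFb, which is CDK9 with CCNT1 or CCNT2, releases it. In cattle the early cleavages run mainly on maternal RNA stored in the egg, and the main activation of the embryonic genome falls at about the 8-cell stage, so this machinery is itself first supplied by the oocyte. TBPL2, GTF2A1L, TAF4B and TAF7L are germ-line relatives of TBP, GTF2A1, TAF4 and TAF7. A symbol rule also takes in proteins with other work: TAF1A to TAF1D serve RNA polymerase I, TAF5L, TAF6L, SUPT3H, SUPT7L and SUPT20H belong to the SAGA coactivator, TAF15 is an RNA-binding protein, and GTF2I and its relatives are DNA-binding factors.

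The libraries come from embryos of cattle fertilised in vitro with semen of the Holstein breed, from oocytes of abattoir ovaries. Control embryos and embryos edited in RPL12 (which encodes a ribosomal protein of the large subunit) were collected when they had 4 or 8 cells, giving 4 groups of 2 libraries, each library made from 5 pooled embryos. Edited embryos had been injected as zygotes with the prime editor PEmax and a guide RNA for the change named A148G in the series' design text, whereas sample titles speak of base editing. The labels give neither the share of edited alleles nor whether controls were injected, and they call the source of the 4-cell samples oocytes. Nothing in the labels says that the 2 libraries of a group come from separate cultures, so p-values measure the spread between these libraries, which may be technical.

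Between 33527531 and 35122409 reads fell on genes in each library, and the 95 genes took 0.933% to 1.03% of them. At this depth 3 reads equal 0.0858 to 0.0899 CPM. RPL12 itself stood at 27.5 and 33.6 CPM in edited against 159 and 174 CPM in control libraries at the 4-cell stage. It was at 14.1 and 11.9 CPM in edited against 96.3 and 97.6 CPM in control libraries at the 8-cell stage. The log2 fold changes were -2.41 and -2.81 (adjusted p 2.36e-06 and 2.99e-06 by limma). All 15 oocyte markers of a fixed list had reads in all 8 libraries. Their summed level was 19931 and 26275 CPM in the 4-cell control and 49414.5 and 57934 CPM in the 4-cell edited libraries. It was 50238 and 37704 CPM in the 8-cell control and 52979 and 56160 CPM in the 8-cell edited libraries. BTG4 alone stood at 12015.5 and 14925 CPM in the 4-cell controls and at 28841 and 37563 CPM in the 4-cell edited libraries. The sums of the oocyte markers thus depend strongly on that gene. At the 4-cell stage both edited libraries lay above both controls for 7 of the 15 oocyte markers and below them for 1. At the 8-cell stage they lay above for 11 and below for 0. Of genes known for embryonic genome activation, DUXA, KLF17 and ZSCAN4 were in the table, and their summed level was 2.38 to 5.29 CPM at the 4-cell and 14.1 to 67.6 CPM at the 8-cell stage. All 24 markers of cumulus and granulosa cells, the somatic cells around the oocyte, were in the table, and 20 to 23 of them had a read in each library. Their summed level was 1850 and 1468 CPM in the 4-cell control libraries, 484 and 538 CPM in the 4-cell edited, 656 and 966 CPM in the 8-cell control, and 522 and 499 CPM in the 8-cell edited libraries. Among the defining granulosa markers, FOXL2 had at most 0.464 CPM, LHCGR at most 0.0578 CPM, with no read in 5 of the 8 libraries, and FSHR 0.2696 to 9.68 CPM. At the 4-cell stage both edited libraries lay below both controls for 16 of the 24 markers and above them for 2, HAS2 and GREM1. At the later stage they lay below for 11 and above for 4, HAS2, GREM1, PTGS2 and STAR. CYP11A1, a steroid enzyme, stood at 227 and 201 CPM in the 4-cell controls against 3.33 and 14.5 CPM in the edited libraries. HAS2, which makes hyaluronan, stood at 24.3 and 55.4 CPM against 132 and 124 CPM there. How often both edited libraries lay above or below both controls was not counted over all tested genes. The marker counts therefore show nothing particular to these lists.

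At the 4-cell stage the Pol II machinery did not shift as a block: 20 members rose and 17 fell in edited embryos at an adjusted p-value under 0.05, and 56 were not called. Calls in both directions were found among the initiation factors, where GTF2A1, GTF2A2, GTF2B, TAF5, CDK7 and MNAT1 rose and GTF2E2, GTF2H4 and TAF11 fell, and among the 11 Pol II subunits, where POLR2K rose and 6 fell. SUPT4H1 and CDK9, of pausing and its release, fell. Over all tested genes 18.9% were called higher and 25.8% lower, 44.7% in all, against 39.8% of the members, so the number of members called is near that of any genes at this stage. The median log2 fold change of the members was 0.26, and -0.02 over all tested genes. In bulk libraries fewer cells of a type and less RNA per cell cannot be told apart. When the median of all tested genes was set equal in every library, that median moved up by 0.24 and the calls became 33 higher and 17 lower. With the mean log2 level of the cumulus and granulosa markers as a covariate, 0 of the 93 members were called and 8 had an unadjusted p under 0.05 by limma. Differences between the 4 groups made up 89.4% of the variance of this covariate, so marker level and editing cannot be told apart in that fit. For neither setting is the share of all tested genes called given here, so these counts show nothing particular to the members.

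At the 8-cell stage 3 members rose (POLR2J, MED18 and TBPL2) and 10 fell. This is 13.98% of the members, where 15.6% of all tested genes were called, 1.08% higher and 14.5% lower. The medians were 0.07 for the members and 0.00 for all tested genes. Setting the median of tested genes equal moved it by 0.23 and gave 7 higher and 7 lower. The share of all tested genes called in that setting is not given here. The calls depended on single libraries: without the second 8-cell control library 2 members were called, POLR2J and TAF1D, without the second 8-cell edited library 5, and with the marker covariate 0 (3 at an unadjusted p under 0.05). The second 8-cell control library was the one with the higher marker sum, 966 against 656 CPM. Of the 37 members called at the 4-cell stage, 9 were also called at the 8-cell stage, all in the same direction: TBPL2 rose at both, and GTF2E2, MED11, MED28, MED29, POLR2F, POLR2G, POLR2I and TAF11 fell at both. The same count was not made over all tested genes, so nothing here shows this overlap to be particular to the members.

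**Figure D1:**
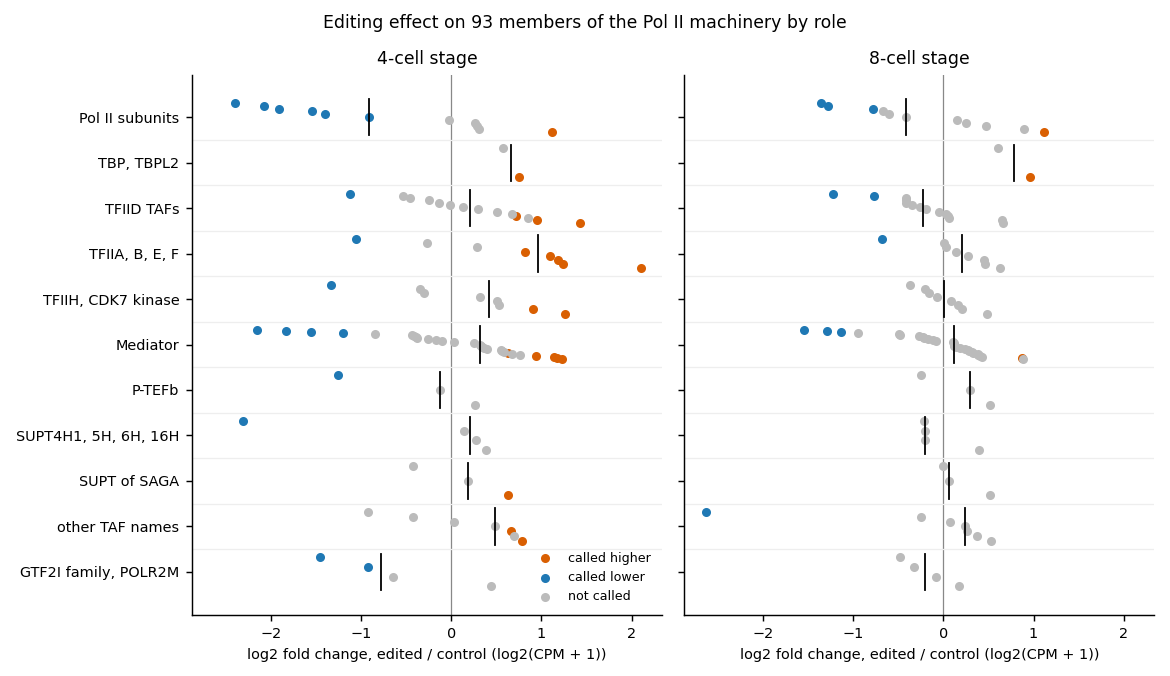
Each point is one of the 93 tested members, placed by its log2 fold change (edited over control, log2(CPM + 1) scale) at the 4-cell stage on the left and the 8-cell stage on the right, in rows by role; colour gives the limma call and the black line the median of the row. The Pol II subunits spread from -2.40 to 1.12 at the 4-cell stage, and the row of TFIIA, TFIIB, TFIIE and TFIIF has its median at 0.96 there and at 0.21 at the 8-cell stage.

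The summed level of the 11 tested Pol II subunits at the 4-cell stage was 2669 and 2333 CPM in controls against 1373 and 1282 CPM in edited embryos, and 1772 and 2105 CPM against 2099 and 2022 CPM at the 8-cell stage. Of these 8-cell sums POLR2J alone made up 333 and 394 CPM in controls and 794 and 773 CPM in edited embryos. The 8-cell sums thus depend strongly on that gene. The 2 largest subunits, POLR2A and POLR2B, were called at neither stage. POLR2A, whose tail carries the phosphorylation marks of the transcription cycle, stood at 17.7 and 13.98 CPM in edited against 13.4 and 11.7 CPM in control libraries at the 4-cell stage. At the 8-cell stage it stood at 24.3 and 21.4 CPM in edited against 9.67 and 14.4 CPM in control libraries, where the edited libraries lay above both controls without passing the test (log2 fold change 0.89, 95% interval 0.21 to 1.58, limma adjusted p 0.0763). POLR2B, the second-largest subunit, which forms the active centre together with POLR2A, stood at 60.6 and 84.99 CPM in edited against 64.00 and 84.00 CPM in control libraries at the 4-cell stage, with overlapping groups (log2 fold change -0.03, interval -0.59 to 0.53). POLR2B was later, at the 8-cell stage, at 37.5 and 50.2 CPM in edited against 62.4 and 71.1 CPM in control libraries (log2 fold change -0.61, limma adjusted p 0.151).

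Of the smaller subunits 6 fell at the 4-cell stage and POLR2K rose, so that 54.5% of the 11 subunits were called lower, where 25.8% of all tested genes were, a difference that was not tested. POLR2E, a subunit shared by RNA polymerases I, II and III, stood at 45.4 and 38.5 CPM in edited against 237 and 212 CPM in control libraries, a log2 fold change of -2.40 (SE 0.251, adjusted p 3.16e-06 by limma). POLR2F, also shared by these 3 enzymes, stood at 106 and 97.7 CPM in edited against 546 and 339 CPM in control libraries (log2 fold change -2.07, limma adjusted p 3.64e-05). In both genes every edited library lay below both controls, and the same held for POLR2G, POLR2I, POLR2C and POLR2D. POLR2G, which with POLR2D forms the stalk, stood at 153 and 185 CPM in edited against 493 and 494 CPM in control libraries. POLR2I, which takes part in proofreading, stood at 27.9 and 27.3 CPM in edited against 132 and 86.5 CPM in control libraries. For POLR2G and POLR2I the log2 fold changes were -1.55 and -1.91, and for POLR2C and POLR2D -1.40 and -0.91, with limma adjusted p-values from 6.37e-05 to 0.00278. The summed level of the cumulus and granulosa markers moved in the same direction as these 6 subunits, and a link was not tested. None of the calls held with the mean log2 level of these markers as a covariate. In that fit no member was called, and GTF2A1, TAF5, MNAT1 and CDK7, which rose, lost their calls too. The loss therefore does not set the fallen subunits apart from other members. POLR2K, another shared subunit, went the other way, with 34.6 and 38.7 CPM in edited against 10.9 and 24.2 CPM in control libraries (log2 fold change 1.12, limma adjusted p 0.0143). Its 2 control libraries differ more than 2-fold, and without the first of them, or without either edited library, the call was lost.

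By the 8-cell stage 3 of those 6 subunits were still called lower and POLR2J was higher. POLR2F stood at 110.1 and 89.6 CPM in edited against 180.1 and 326 CPM in control libraries. POLR2I stood at 28.6 and 19.8 CPM in edited against 50.3 and 78.4 CPM in control libraries. POLR2G stood at 224 and 167 CPM in edited against 291 and 378 CPM in control libraries. In that order the log2 fold changes were -1.28, -1.36 and -0.78 (limma adjusted p 0.00482, 0.00419 and 0.027). All 3 control values were higher in the second control library, and none of the 3 calls held without it or without the second edited library. The POLR2G call was also lost with edgeR, with no filter on low values and with equal medians of the tested genes. POLR2J, the partner of POLR2C in subunit assembly, stood at 794 and 773 CPM in edited against 333 and 394 CPM in control libraries (log2 fold change 1.11, with an SE of 0.220 and an adjusted p of 0.00186 by limma). The edited libraries lay close together and well above the controls, and the call held without each library in turn. POLR2C, by contrast, was at 336 and 413 CPM in edited against 334 and 335 CPM in control libraries, with the lower edited library close to both controls (log2 fold change 0.15, interval -0.29 to 0.60). POLR2H stood between 191 and 337 CPM in the 8 libraries and was called at neither stage. The reads of POLR2C may include some of DOK4, a gene that overlaps it in RefSeq's table for the assembly ARS-UCD2.0, and those of POLR2B some of IGFBP7.

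**Figure D2:**
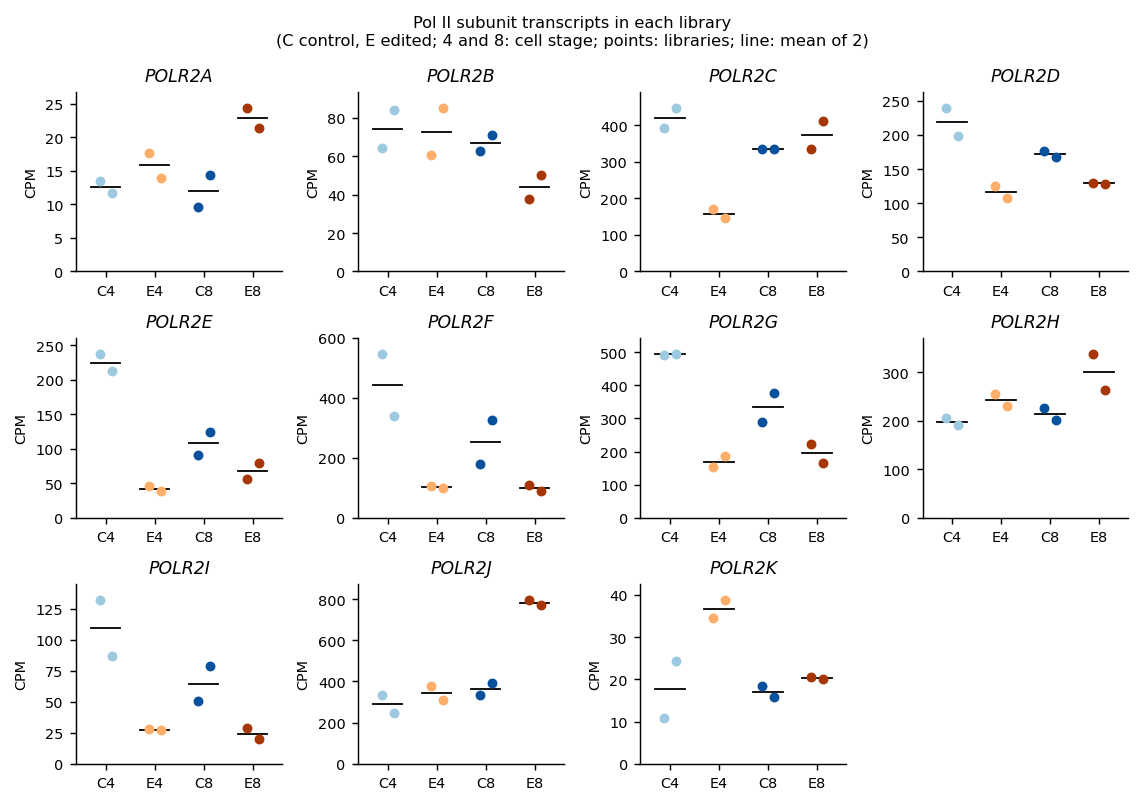
Level in CPM of the 11 Pol II subunit transcripts in each of the 8 libraries, by group, with the mean of the 2 libraries as a line and each axis starting at 0. POLR2E, POLR2F, POLR2G and POLR2I are highest in the 4-cell controls and low in all 4 edited libraries, whereas POLR2J is high in the 8-cell edited libraries (794 and 773 CPM) and POLR2C is low in the 4-cell edited ones (171 and 145 CPM).

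TBPL2, the oocyte form of the TATA-binding protein, was the one member that rose at both stages. It stood at 37.9 and 45.3 CPM in edited against 23.96 and 24.4 CPM in control libraries at the 4-cell stage. It reached 50.3 and 63.4 CPM in edited against 30.01 and 26.9 CPM in control libraries at the 8-cell stage. The edited libraries lay above the controls at both, with log2 fold changes of 0.75 and 0.97 (limma adjusted p 0.0282 and 0.0176). The 8-cell call was lost without any one of the 4 libraries compared, and the 4-cell call without either 4-cell control or the second 4-cell edited library. TBP itself, the general form, was at 37.7 and 36.5 CPM in edited against 23.3 and 25.8 CPM in control libraries at the 4-cell stage. TBP was at 37.6 and 38.5 CPM in edited against 29.9 and 20.2 CPM in control libraries at the 8-cell stage. Its log2 fold changes of 0.58 and 0.61 did not pass (limma adjusted p 0.103 and 0.168), and their intervals, -0.01 to 1.17 and 0.02 to 1.20, include the values of TBPL2.

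Among the TAF subunits of TFIID, 3 rose and 1 fell of 14 tested at the 4-cell stage, and 0 rose and 2 fell at the 8-cell stage. The shares called were 28.6% and 14.3%, where 44.7% and 15.6% of all tested genes were called. TAF5, a scaffold subunit, stood at 258 and 211 CPM in edited against 74.8 and 98.1 CPM in control libraries at the 4-cell stage (log2 fold change 1.43, with an SE of 0.228 and an adjusted p of 0.000124 by limma). It was at 152 and 146 CPM in edited against 159 and 134 CPM in control libraries at the 8-cell stage, where the groups overlap. TAF4, which holds the complex together, was at 43.6 and 27.8 CPM in edited against 17.96 and 17.1 CPM in control libraries at the 4-cell stage (limma adjusted p 0.0153), a call that was lost without the first edited library. TAF11, the partner of TAF13, fell at both stages. It stood at 28.8 and 35.2 CPM in edited against 74.3 and 66.8 CPM in control libraries early and 20.7 and 24.1 CPM in edited against 49.6 and 57.6 CPM in control libraries late (log2 fold changes -1.12 and -1.22, limma adjusted p 0.00225 and 0.00306), the latter call being lost without the second 8-cell control library. TAF13 itself, at 68.1 and 139 CPM in edited against 98.05 and 97.6 CPM in control libraries at the 4-cell stage, varied 2-fold between edited libraries and was not called.

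TAF9 and its paralog TAF9B were called in opposite directions, at different stages. TAF9B rose at the 4-cell stage, with 48.9 and 59.7 CPM in edited against 28.9 and 36.6 CPM in control libraries (log2 fold change 0.71, limma adjusted p 0.0306), and stood at 68.2 and 62.1 CPM in edited against 42.3 and 39.2 CPM in control libraries at the 8-cell stage. TAF9 fell at the 8-cell stage, with 197 and 214 CPM in edited against 334 and 366 CPM in control libraries (log2 fold change -0.76, limma adjusted p 0.0325), a call that neither edgeR nor DESeq2 made and that was lost without any one of the 4 libraries compared. In RefSeq's table TAF9 overlaps AK6 and TAF9B overlaps PGK1, and TAF5 and TAF4 overlap ATP5MK and CDH4, so reads of these pairs may be mixed. TAF1, the largest TAF, was not called and scattered widely, from 3.998 to 17.96 CPM over the 8 libraries, the lowest value being that of the first 4-cell control library. TAF4B, the germ-line form of TAF4, was at 2.16 to 5.58 CPM in all libraries and was called nowhere. TAF7L, the germ-line form of TAF7, had no read in 4 libraries and at most 0.616 CPM, and TAF6 stood at 0.418 to 1.47 CPM.

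Of the 8 genes of TFIIA, TFIIB, TFIIE and TFIIF, 5 rose and 1 fell at the 4-cell stage, with a median log2 fold change of 0.96. That is 62.5% higher and 12.5% lower, where 18.9% of all tested genes were higher and 25.8% lower, and no test compared this small list with other genes. At the 8-cell stage 0 rose and 1 fell. GTF2A1, the large TFIIA subunit, had the greatest rise of any member, to 94.6 and 79.4 CPM in edited against 16.4 and 22.96 CPM in control libraries (log2 fold change 2.10, with an SE of 0.266 and an adjusted p of 1.69e-05 by limma). Its germ-line relative GTF2A1L stood at 263 and 309 CPM in edited against 105 and 168 CPM in control libraries. The small TFIIA subunit GTF2A2 stood at 323 and 380.3 CPM in edited against 161 and 147 CPM in control libraries. Their log2 fold changes were 1.10 and 1.18. All 3 TFIIA transcripts were thus higher in both edited libraries than in both controls. GTF2B, which is TFIIB and positions the polymerase at the start site, stood at 632 and 860.4 CPM in edited against 217 and 445 CPM in control libraries (log2 fold change 1.24, limma adjusted p 0.00202), with controls that differ 2-fold. GTF2F2 of TFIIF rose too (0.82, limma adjusted p 0.0109). GTF2E2, the small TFIIE subunit, went the other way at both stages. It stood at 511 and 463 CPM in edited against 1193 and 861 CPM in control libraries at the 4-cell stage. It was then at 430.4 and 462 CPM in edited against 707 and 718 CPM in control libraries at the 8-cell stage (limma adjusted p 0.000855 and 0.0405). Its 8-cell call was not made by edgeR or DESeq2 and was lost without any one of the 4 libraries compared. Its partner in TFIIE, GTF2E1, at 43.7 to 66.4 CPM in all libraries, was called at neither stage.

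Of the 8 tested genes of TFIIH, 2 rose and 1 fell at the 4-cell stage. The share called, 37.5%, is below the 44.7% of all tested genes. Both genes that rose are among the 3 of the kinase module. CDK7 stood at 623 and 686 CPM in edited against 303 and 398 CPM in control libraries. MNAT1 stood at 384 and 420.2 CPM in edited against 162 and 172 CPM in control libraries. Their log2 fold changes were 0.91 (limma adjusted p 0.00266) and 1.26 (limma adjusted p 0.00014). CCNH was at 202 and 139.9 CPM in edited against 118 and 114 CPM in control libraries, above the controls in both edited libraries but short of the threshold (log2 fold change 0.53, limma adjusted p 0.0695). Of the 5 GTF2H subunits, GTF2H4 fell, from 10.7 and 11.02 CPM in controls to 3.99 and 3.45 CPM in edited libraries (log2 fold change -1.33, limma adjusted p 0.00571). By the 8-cell stage 0 of the 8 genes were called by limma (1, CDK7, at an unadjusted p under 0.05). CDK7 was then at 739 and 739.9 CPM in edited against 587 and 477 CPM in control libraries. MNAT1 was at 274 and 237 CPM in edited against 221 and 221 CPM in control libraries, with limma adjusted p-values of 0.158 and 0.564. CDK7 overlaps CCDC125 in RefSeq's table.

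Of the 29 tested genes of Mediator, 5 rose and 4 fell at the 4-cell stage. The share called, 31.03%, is below the 44.7% of all tested genes. At the 8-cell stage 1 rose and 3 fell, 13.8% against 15.6% of all tested genes. MED14, the backbone that joins its modules, stood at 113 and 119.9 CPM in edited against 37.96 and 63.9 CPM in control libraries (log2 fold change 1.23, limma adjusted p 0.0022). MED21, of the middle module, stood at 365 and 384 CPM in edited against 207 and 181 CPM in control libraries (log2 fold change 0.95, limma adjusted p 0.00138). MED13 and its paralog MED13L, which tether the kinase module, rose as well, to 76.8 and 61.7 CPM from 21.3 and 43.9 CPM and to 50.7 and 37.2 CPM from 16.1 and 21.7 CPM. MED13 had 2-fold different controls, and its call was lost without the first of them or the first edited library. MED1, the subunit contacted by nuclear receptors, was at 77.2 and 63.8 CPM in edited against 39.7 and 56.5 CPM in control libraries and did not pass (log2 fold change 0.56, limma adjusted p 0.102).

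The Mediator genes that fell were MED11, MED29, MED9 and MED28, and 3 of these fell at the 8-cell stage too. MED11, a head module subunit, stood at 2.55 and 2.19 CPM in edited against 13.6 and 14.5 CPM in control libraries at the 4-cell stage. It stood at 1.94 and 1.92 CPM in edited against 6.75 and 8.48 CPM in control libraries at the 8-cell stage. The log2 fold changes were -2.16 and -1.55 (limma adjusted p 0.00018 and 0.00603). MED28 stood at 22.2 and 16.8 CPM in edited against 52.01 and 40.1 CPM in control libraries and at 13.7 and 13.9 CPM in edited against 31.7 and 38.9 CPM in control libraries at the same stages (-1.20 and -1.29, limma adjusted p 0.00311 and 0.00484). MED29 stood at 19.96 and 13.98 CPM in edited against 48.97 and 52.9 CPM in control libraries and at 15.8 and 11.4 CPM in edited against 24.9 and 37.96 CPM in control libraries. The 8-cell calls of all 3 were lost without the second 8-cell control library. In all 3 genes the edited libraries of either stage lay below every control library. As with the Pol II subunits that fell, the summed level of the cumulus and granulosa markers was lower in the same libraries, and a link was not tested. MED18, another head subunit, rose at the 8-cell stage, where it stood at 106 and 134 CPM in edited against 60.98 and 68.6 CPM in control libraries (log2 fold change 0.88, limma adjusted p 0.017), a call lost without either control or the second edited library. At the 4-cell stage MED18 stood at 56.3 and 50.6 CPM in edited against 49.98 and 54.2 CPM in control libraries. MED12, which activates the kinase of the module, was weakly expressed, at 2.08 and 1.61 CPM in edited against 3.94 and 4.28 CPM in control libraries and 0.717 and 0.958 CPM in edited against 2.203 and 2.93 CPM in control libraries at the 2 stages, below the controls but not called (limma adjusted p 0.0776 and 0.107).

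Among the factors of pausing and elongation, SUPT4H1 and CDK9 fell at the 4-cell stage and their partners were not called. SUPT4H1, the small subunit of DSIF, stood at 28.3 and 34.2 CPM in edited against 124 and 201 CPM in control libraries, a log2 fold change of -2.31 (with an SE of 0.275 and an adjusted p of 9.73e-06 by limma). SUPT5H, the large DSIF subunit, was at 32.3 and 15.5 CPM in edited against 18.4 and 18.2 CPM in control libraries, with one edited library above and one below the controls (log2 fold change 0.28, limma adjusted p 0.537). CDK9, the kinase of P-TEFb, stood at 22.8 and 22.9 CPM in edited against 60.2 and 52.2 CPM in control libraries (log2 fold change -1.26, limma adjusted p 0.00126). Its cyclins did not pass the test. CCNT1 was at 24.2 and 22.02 CPM in edited against 23.6 and 26.8 CPM in control libraries. CCNT2 was at 30.1 and 29.7 CPM in edited against 23.5 and 26.04 CPM in control libraries, with intervals of -0.78 to 0.53 and -0.31 to 0.84. SUPT6H and SUPT16H, which handle nucleosomes in front of and behind the polymerase, were called at neither stage. SUPT20H of SAGA rose at the 4-cell stage to 429.7 and 483 CPM in edited against 275 and 315 CPM in control libraries (log2 fold change 0.63, limma adjusted p 0.0204), a call lost without the first control or the second edited library, and it overlaps EXOSC8 in RefSeq's table. At the 8-cell stage none of these 10 genes of P-TEFb and the SUPT groups was called by limma (1 of the 10, SUPT20H, had an unadjusted p under 0.05).

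Of the members whose names follow the pattern but whose work lies elsewhere, TAF1D had the greatest change of any member at the 8-cell stage. This subunit of the Pol I promoter factor stood at 2.301 and 0.479 CPM in edited against 13.6 and 11.97 CPM in control libraries (log2 fold change -2.64, with an SE of 0.426 and an adjusted p of 0.000338 by limma). Earlier, at the 4-cell stage, it stood at 7.78 and 15.2 CPM in edited against 15.6 and 14.3 CPM in control libraries, with one edited library inside the range of the controls. Its partners TAF1A and TAF1B rose at the 4-cell stage, with log2 fold changes of 0.78 and 0.66 (limma adjusted p 0.0187 and 0.0337), and both calls were lost without the first control or the second edited library. POLR2M, a protein that binds Pol II without being a core subunit, fell at the 4-cell stage from 49.4 and 43.3 CPM to 25.7 and 22.3 CPM (log2 fold change -0.92, limma adjusted p 0.0108), a call lost without the first control or the second edited library. GTF2IRD2 fell from 8.14 and 13.96 CPM to 2.92 and 3.598 CPM (limma adjusted p 0.0109). GTF2IRD2 has close relatives in the genome, and its count is uncertain to the extent that reads were shared with them. Its call was lost without the second control or the first edited library.

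The effect of editing itself differed between the stages for 7 of 93 members by limma's test of the difference (8-cell effect minus 4-cell effect), 4 with a more positive and 3 with a more negative value at the 8-cell stage. Over all tested genes 3.96% were called, 1.95% more positive and 2% more negative. For SUPT4H1 the difference was 2.70 (with an SE of 0.389 and an adjusted p of 0.00681 by limma), and at the 8-cell stage it stood at 129 and 200.3 CPM in edited against 121 and 122 CPM in control libraries, no lower than control. CDK9 was at 50.3 and 43.7 CPM in edited against 27.5 and 38.2 CPM in control libraries at the 8-cell stage, above both controls, after being below both at the 4-cell stage, and its difference was 1.78 (limma adjusted p 0.0269). POLR2C and POLR2E had differences of 1.56 and 1.73 (limma adjusted p 0.0206 and 0.0251), and POLR2E was at 56.3 and 78.8 CPM in edited against 90.6 and 125 CPM in control libraries at the later stage. The 3 genes with the opposite sign were GTF2A1, TAF5 and GTF2A2, with -1.65, -1.40 and -1.18. Other initiation genes that had risen at the 4-cell stage, GTF2B, GTF2A1L, GTF2F2, CDK7, MNAT1, TAF4 and TAF9B, were not called for the difference. GTF2A1 stood at 47.1 and 40.4 CPM in edited against 31.6 and 31.4 CPM in control libraries at the 8-cell stage, still above both controls. GTF2A2 was at 191 and 224 CPM in edited against 220.0 and 193 CPM in control libraries, with overlapping groups. DESeq2 called 10 members, 4 more positive and 6 more negative. edgeR on the recovered reads called 1, SUPT4H1, and limma with no filter on low values called 0 (26 had an unadjusted p under 0.05). The count was 13 without the second 4-cell control library, 2 without the first, and 0 without either 4-cell edited library (24 and 20 at an unadjusted p under 0.05). It was 1 without the first 8-cell control library and 1 without either 8-cell edited library.

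**Figure D3:**
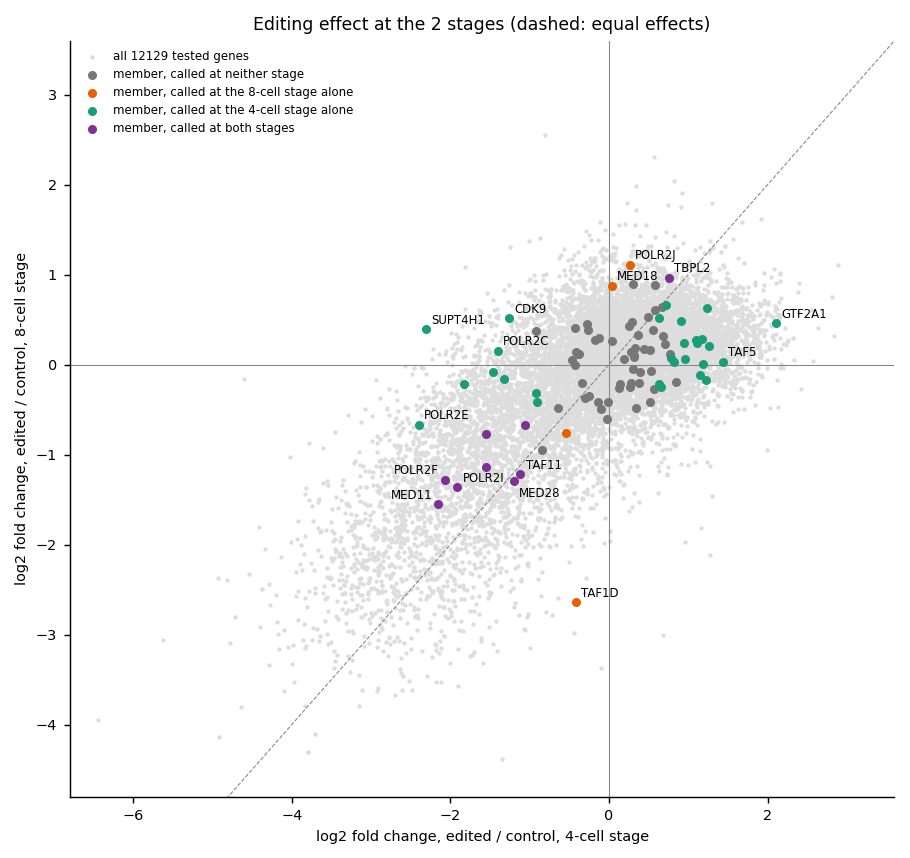
Log2 fold change of edited over control embryos at the 4-cell stage (horizontal) and the 8-cell stage (vertical), for all 12129 tested genes in light grey and the 93 members in colour by where limma called them; the dashed line marks equal effects. SUPT4H1 lies at -2.31 and 0.40, GTF2A1 at 2.10 and 0.46, and TAF1D at -0.42 and -2.64, while MED11, POLR2F and POLR2I lie low on both axes.

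From the 4-cell to the 8-cell stage 2 members were called in control and 9 in edited embryos, and whether these counts differ was not tested. In controls 1 member rose (TAF5, log2 fold change 0.76, limma adjusted p 0.048) and 1 fell (POLR2E, -1.07, limma adjusted p 0.0221). That is 2.15% of the members, where 9.02% of all tested genes were called, 2.75% higher and 6.27% lower. The median was 0.10 for the members and 0.01 for all. Other settings called from 0 to 13 members, edgeR 0 (20 at an unadjusted p under 0.05) and DESeq2 5. The count was 13, 9 of them higher, without the second 4-cell control library, and 4 without the second 8-cell control library. It was 0 without the first 4-cell or the first 8-cell control library (9 and 4 at an unadjusted p under 0.05), and 1, POLR2E, without any one of the 4 edited libraries.

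In edited embryos 5 members rose and 4 fell, which is 9.68% of the members, where 5.18% of all tested genes were called, 1.45% higher and 3.73% lower. SUPT4H1 rose most, from 28.3 and 34.2 CPM to 129 and 200.3 CPM (log2 fold change 2.33, limma adjusted p 0.000542), and this call held in all 18 alternatives. The second 8-cell library was the higher one, and both lay above both 4-cell libraries. POLR2C rose by 1.23, POLR2J by 1.19, MED18 by 1.15 and CDK9 by 1.01 on the log2 scale, with limma adjusted p-values from 0.00625 to 0.0415. TAF1D, TAF2, GTF2A1 and GTF2A2 fell, with -2.43, -1.18, -0.97 and -0.76. TAF2, a TFIID subunit that reads the start site, stood at 35.8 and 33.7 CPM in 4-cell and 15.2 and 14.4 CPM in 8-cell edited libraries. The count was 3 without the first 8-cell edited library and 1 without the second, and 1 without the second 4-cell edited library (19, 13 and 16 at an unadjusted p under 0.05). DESeq2 called 14, with 6 higher and 8 lower. These comparisons use the same edited and control libraries as the comparisons of editing, so a low 4-cell edited value of SUPT4H1, POLR2C or CDK9 enters both.

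**Figure D4:**
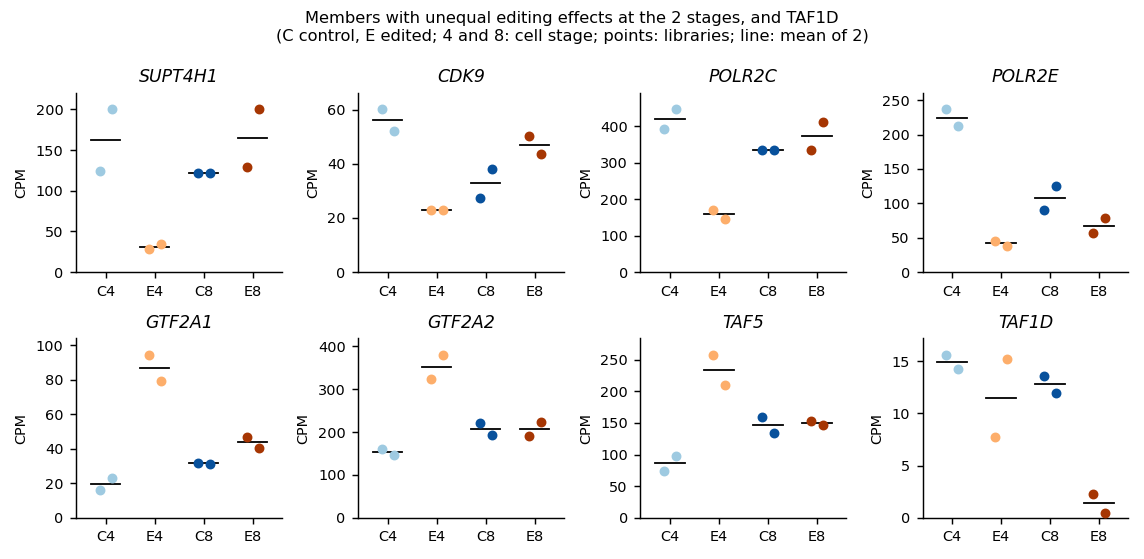
Level in CPM in each library, by group, for the 7 members whose editing effect differed between stages and for TAF1D, with the mean of 2 libraries as a line and each axis starting at 0. SUPT4H1, CDK9 and POLR2C are lowest in the 4-cell edited libraries (28.3 and 34.2 CPM for SUPT4H1), GTF2A1, GTF2A2 and TAF5 are high there, and TAF1D is low in the 8-cell edited libraries (2.30 and 0.479 CPM).

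Ratios of related transcripts within a library do not depend on how libraries are scaled, although their size depends on transcript length and is compared here between libraries, not with 1. The ratio of MED12L to MED12 was 2.04 and 1.95 in controls against 6.54 and 8.58 in edited libraries at the 4-cell stage, and 4.62 and 3.48 against 18.4 and 13.3 at the 8-cell stage. Every edited library exceeded every control library. The same order held for TAF9B to TAF9, at 0.0617 and 0.0975 against 0.208 and 0.169, then 0.127 and 0.107 against 0.347 and 0.289, controls first in both. TBPL2 to TBP gave 1.03 and 0.945 against 1.01 and 1.24 and 1.003 and 1.33 against 1.34 and 1.64, with groups that overlap or nearly touch. The germ-line GTF2A1L relative to GTF2A1 was low in the 4-cell edited libraries, at 2.78 and 3.89, and between 5.77 and 8.28 in the other 6. SUPT4H1 relative to its DSIF partner SUPT5H was 0.877 and 2.21 in the 4-cell edited libraries and between 5.15 and 11.01 in the other 6. Of the remaining pairs computed, MED13L to MED13 was 0.756 and 0.495 in controls against 0.661 and 0.604 in edited libraries at the 4-cell stage. At the 8-cell stage TAF4B to TAF4 was 0.243 and 0.190 against 0.131 and 0.205. CCNT2 to CCNT1 was 1.18 and 0.816 against 0.525 and 0.838 there. These groups overlapped, whereas at the other stage the edited ratios were higher for MED13L and CCNT2 and lower for TAF4B. No test was made on these ratios, and MED12L overlaps GPR171 and 3 P2RY genes of the deposited table in RefSeq's table.

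**Figure D5:**
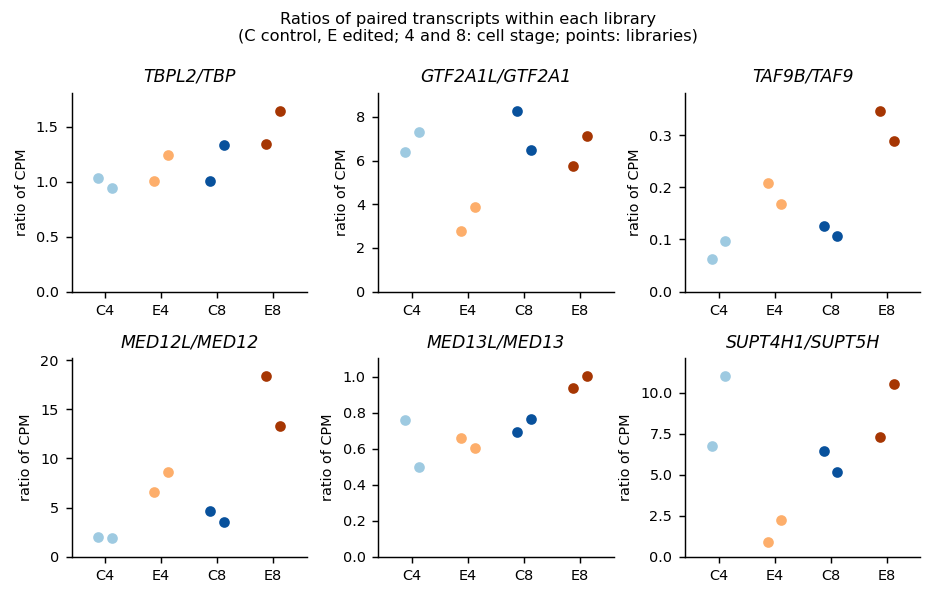
Ratio of the CPM of 2 related transcripts within each library, by group, each axis starting at 0. The MED12L to MED12 and TAF9B to TAF9 ratios are higher in all 4 edited libraries than in any control, and the GTF2A1L to GTF2A1 and SUPT4H1 to SUPT5H ratios are lowest in the 2 4-cell edited libraries.

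Of 59 tested partners of these complexes that the symbol rule leaves out, 16 rose and 9 fell at the 4-cell stage, and 1 rose and 6 fell at the 8-cell stage. The shares called, 42.4% and 11.9%, are near or below the 44.7% and 15.6% of all tested genes. In the kinase module of Mediator, CDK8 rose, with 250.0 and 192 CPM in edited against 87.2 and 139.7 CPM in control libraries (0.98, limma adjusted p 0.00431), and its cyclin CCNC fell, with 8.94 and 20.03 CPM in edited against 41.2 and 40.1 CPM in control libraries (-1.52, limma adjusted p 0.00247).

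CCNC was low in the 8-cell edited libraries too, with 5.32 and 5.09 CPM in edited against 25.7 and 21.7 CPM in control libraries (-1.99, limma adjusted p 0.000766). Among the regulators of TBP, DR1, a repressor that binds TBP on DNA, and TBPL1, another TBP relative, rose at the 4-cell stage by 1.59 and 1.03 on the log2 scale, and neither was called at the 8-cell stage. Of 8 genes of the pausing factor NELF and of the 7SK particle, which keeps P-TEFb inactive, NELFE fell at both stages, with 22.01 and 18.9 CPM in edited against 138 and 106 CPM in control libraries at the 4-cell stage (-2.51, limma adjusted p 3.24e-06) and 19.96 and 22.6 CPM in edited against 42.9 and 52.5 CPM in control libraries at the 8-cell stage (-1.12, limma adjusted p 0.00686). NELFCD fell at the 4-cell stage (-1.23). LARP7, the protein that stabilises 7SK RNA, rose there, with 383 and 398 CPM in edited against 116 and 141 CPM in control libraries (1.60, limma adjusted p 3.26e-05), and was at 172 and 223 CPM in edited against 185 and 198 CPM in control libraries at the 8-cell stage.

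Of 22 elongation genes 7 rose and 3 fell at the 4-cell stage, with CDC73 and RTF1 of the PAF1 complex among the former (1.30 and 0.84) and the TFIIS genes TCEA2 and TCEA3, whose products restart a stalled polymerase, among the latter (-2.82 and -1.46). At the 8-cell stage 0 rose and 2 fell, namely TCEA2 (-1.71) and AFF4, the scaffold of the super elongation complex, which stood at 1.05 and 3.59 CPM in edited against 10.7 and 16.3 CPM in control libraries (-2.21, limma adjusted p 0.00128). Of 11 genes that act on the tail of POLR2A or assemble the enzyme, RPAP2 and RPRD2 rose (1.50 and 0.97) and SSU72 and GPN1 fell (-0.98 and -0.93) at the 4-cell stage, and GPN1 and GPN3, which help bring the enzyme into the nucleus, fell at the 8-cell stage (-1.04 and -1.10). Of 9 other SAGA genes ENY2 and TADA1 rose and TADA3 fell at the 4-cell stage (1.35, 0.99 and -0.87), and TADA1 alone was called at the 8-cell stage (0.68).

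The polymerases that share POLR2E, POLR2F, POLR2H and POLR2K with Pol II also had calls in both directions. Of 8 subunits of Pol I, POLR1B rose and POLR1C and POLR1F fell at the 4-cell stage (0.78, -2.41 and -2.33), and POLR1C and POLR1D, which Pol I and Pol III share, fell at the 8-cell stage (-1.26 and -0.87). Among subunits of Pol III, POLR3G and POLR3B rose and POLR3F fell at the 4-cell stage (1.27, 0.88 and -1.64). POLR3F fell at the 8-cell stage as well, where it stood at 0.867 and 0.928 CPM in edited against 8.87 and 11.9 CPM in control libraries (-2.57, limma adjusted p 0.000107). No test compared these lists with the Pol II subunits.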

How the data were processed

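RNA was sequenced from pools of 5 cattle embryos (SMART-Seq v4 cDNA, Nextera XT libraries, per the labels' protocols). Trim Galore 0.6.7, HISAT2 2.2.1 and featureCounts 2.0.1 are named in the submitters' processing notes. The genome build, annotation and strand setting are not given in the sources used here. The authors deposited 1 table named as raw counts, whose values are scaled CPM: they are not whole, and dividing by the step of each library gave whole reads within 0.05 for 100% of positive values. The columns sum to between 992528 and 1007024, not to 1000000. Each library thus carries a further scaling that the sources used here do not describe, and limma was run on these scaled values. 4 columns of the table match no sample here and were not used.

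Genes whose mean reached 1 CPM were tested with limma 3.58.1 (trend) on log2(CPM + 1), with 1 mean for each of the 4 groups and all 8 libraries. p-values were adjusted by Benjamini-Hochberg over 12129 genes, and a gene was called at an adjusted p under 0.05. Fold changes on this scale understate the change of low genes. Values in brackets after gene names are log2 fold changes, edited over control. Alternatives were edgeR 4.0.16 and DESeq2 1.42.0 on the recovered reads, other pseudocounts (0.5 and 5), filters (none, 5 CPM) and scaling, a marker covariate, a replicate block, and each library left out. limma was tested on simulated data, with an outcome that is not given here and is not used as support for any call.

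The members and lists were chosen with earlier results of these data known. Named were all POLR2 genes and a fixed set of core factors, with up to 2 called genes per list, direction and stage, and up to 5 per direction in the other comparisons. GTF2A1L, GTF2E1, GTF2F2, MED9, MED12L, MED13L, TAF9B, TAF13, TAF6 and the ratios were added after values were seen. RefSeq's table (ARS-UCD2.0) matched 95 of 95 symbols, and 22 members overlap another gene of the deposited table there. Values of such pairs, and of close gene copies, are uncertain.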

Additional observations from a re-analysis of the deposited data

Results flagged for a closer look

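For 7 members the stages differed in the effect of editing by limma's test of the difference itself (8-cell effect minus 4-cell effect, log2(CPM + 1) scale). The differences were 2.70 for SUPT4H1 (adjusted p 0.00681), 1.56 for POLR2C (adjusted p 0.0206), 1.73 for POLR2E (adjusted p 0.0251) and 1.78 for CDK9 (adjusted p 0.0269). They were -1.65 for GTF2A1 (adjusted p 0.0336), -1.40 for TAF5 (adjusted p 0.0339) and -1.18 for GTF2A2 (adjusted p 0.0409). In the first 4 both 4-cell edited libraries lay below both 4-cell controls, and in the last 3 above them. SUPT4H1 was the one also called by edgeR, and it was lost without either 4-cell edited library and with no filter on low values. TAF1D, with a difference of -2.22, missed the threshold (limma adjusted p 0.0508).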

How the results depend on the processing

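Of the 64 calls followed, those of members named by the fixed rule and of RPL12, none changed sign under any alternative. Calls of members added after values were seen, and of the partner genes, were not followed in this way. With the cumulus and granulosa marker covariate the members called were 0 for editing at the 4-cell stage, 0 at the 8-cell stage, 1 for the difference between stages 0 between stages in controls and 6 in edited embryos (8, 3, 19, 5 and 22 at an unadjusted p under 0.05 by limma), and 56 of 64 named calls were lost. With each library left out in turn the counts ranged from 28 to 43 at the 4-cell stage, 2 to 14 at the 8-cell stage, 0 to 13 for the difference, 0 to 13 between stages in controls and 1 to 13 in edited embryos. With no filter on low values they were 0 for the difference, 0 in controls and 1 in edited embryos (26, 23 and 23 at an unadjusted p under 0.05). edgeR on the recovered reads called 41 and 10 for editing at the 4-cell and 8-cell stages, 1 for the difference and 0 in controls (20 at an unadjusted p under 0.05), and DESeq2 called 5 in controls and 14 in edited embryos. In controls the count was 1 and 4 with pseudocounts of 0.5 and 5 CPM, 4 with a mean of at least 5 CPM, 4 with equal medians and 0 with only the libraries compared (18 at an unadjusted p under 0.05), which gave 14 in edited embryos. The cause of these changes was not tested. Shares of all tested genes called under the alternatives are not given here, so these counts show nothing particular to the members. With the replicate block, whose numbers do not pair the libraries (correlations of deviations from -0.302 to 0.108), the counts were 37, 12, 6, 1 and 6 in the order editing at 4 cells, at 8 cells, difference, controls, edited. Pairing the 4-cell and 8-cell controls crosswise, chosen after seeing the data, gave 9. With 2 libraries per group the spread between libraries, more than read depth, limits precision.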
